A study of Danio rerio with 6 samples.

Results

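The SR proteins and the heterogeneous nuclear ribonucleoproteins (hnRNPs) are the main families of RNA-binding proteins that decide which splice sites of a pre-mRNA are used. SR proteins carry a stretch rich in arginine and serine, bind enhancer sequences in exons and recruit the splicing machinery, whereas hnRNPs coat the nascent transcript and often mask splice sites, so that exon choice follows from the balance between the families. In mammalian T cells such choices alter receptors and signaling proteins during activation, and many genes of both families also limit their own mRNA through exons that lead to its decay. The zebrafish genes of these families were taken as every row of the deposited gene tables whose symbol starts with srsf, hnrnp or hnrp. This rule gave 42 of 31901 genes, of which 17 were SR genes and 25 hnRNP genes.

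Their mRNA was measured in 6 bulk RNA-seq libraries of zebrafish cells, 2 in each of 3 groups. The lck-mCherry group was normal thymus cells of fish that carried only the red fluorescent marker mCherry under lck, a promoter active in lymphocytes, and whether these cells were sorted is not given in the labels. The lck-IRF4 group was mCherry-sorted tumor cells of fish that expressed human IRF4, a lymphocyte transcription factor, together with mCherry under lck, taken once the lymphoma phenotype was present. The lck-IRF4;p53+/- group was tumor cells of the same kind from fish with a p53 mutation on 1 allele. The authors describe the control and lck-IRF4 fish of their RNA-seq as wild type for p53. The promoter acts in T and B lymphocytes of several stages, so neither group is a single cell type, and the labels do not say whether the libraries came from separate fish, so the spread between replicates may be technical. The control ages are not stated for these libraries. The authors give an age only for the lck-IRF4 fish of their regular RNA-seq, so age may differ between controls and tumors, and its part was not tested. The comparisons asked whether splicing regulators differed between normal thymus cells and tumors, and whether the p53 mutation altered them, with both tumor groups set against the same 2 control libraries.

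Gene counts per library were recovered from the authors' mean normalized counts, which gave between 6088682 and 7964249 reads per library, and 3 reads corresponded to between 0.334 and 0.481 CPM, the unit of reads scaled by library size. Trimmed mean of M-values (TMM) scaling factors were 0.858 and 0.876 in the controls and between 1.04 and 1.14 in the tumors, so levels in CPM and plain shares of reads place the groups differently. As a check of the labels, 9 of 11 genes listed as T-cell markers were found. They summed to 7391 and 8116 CPM in the controls, 6621 and 6168 CPM in lck-IRF4 tumors and 5428 and 5373 CPM in lck-IRF4;p53+/- tumors. The list held the stage genes cd4-1, cd8a and rag1. From single cells the authors report that T cells positive for both CD4 and CD8 largely diminished as tumors progressed. The part of T-cell stage in this sum was not tested. The summed levels of markers of other cells lay lower in both controls than in every tumor library for 4 lists. Granulocyte markers (6 of 6 found) summed to between 10.1 and 12.7 CPM in controls and between 29.8 and 177 CPM in tumors, macrophage markers (7 of 7) to between 26.8 and 50.8 and between 69.5 and 604 CPM, B-cell markers (4 of 7) to between 26.8 and 29.2 and between 51.5 and 128 CPM, and epithelial markers (6 of 6) to between 67.3 and 68.4 and between 80.9 and 424 CPM. Erythrocyte markers (6 of 6) summed to 246 and 551 CPM in controls and to between 175 and 1606 CPM in tumors, on both sides of them. Thymic epithelial markers (4 of 4) overlapped too, at 10.8 and 15.7 CPM in controls and between 14.7 and 39.7 CPM in tumors. So did skeletal muscle markers (5 of 5), at 0.87 and 2.56 CPM and between 0.49 and 1.45 CPM. In lck-IRF4;p53+/- tumors against controls, 3 of 6 macrophage, 2 of 7 granulocyte, 1 of 6 epithelial and 2 of 8 T-cell markers passed the test described below. Of all genes tested 2.44% did. No listed marker passed it in lck-IRF4 tumors against controls or between the tumor groups. Each of these markers had a read in at least 1 library, and the part of such cells in the values below was not tested. In bulk RNA, fewer cells of a type and less RNA per cell cannot be told apart.

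Of the 42 genes, 41 had a read and 40 passed the filter on low counts and were tested, 16 SR and 24 hnRNP genes. The exceptions were hnrnph3, with 0 reads in every library, which allows at most 3 reads, and a copy of srsf3a (ENSDARG00000100815.2) with 1 and 0 reads in the controls, 14 and 0 in lck-IRF4 tumors and 5 and 1 in lck-IRF4;p53+/- tumors. Together the family held between 1.118% and 1.39% of a library's recovered reads. On the CPM scale SR genes summed to 5153 and 5910 in the controls, 4057 and 4415 in lck-IRF4 tumors and 3945 and 4492 in lck-IRF4;p53+/- tumors. Every tumor library was therefore below both controls on that scale. As a plain share of recovered reads, SR genes made up 0.451% and 0.506% in the controls, 0.458% and 0.458% in lck-IRF4 tumors and 0.411% and 0.483% in lck-IRF4;p53+/- tumors. Tumors and controls overlapped on this scale, so the lower SR sum depended on the scaling. Recovered reads lack 76 abundant genes, so the shares also depend on the total used. Control replicates 1 and 2 had 7860981 and 7284218 recovered reads, but their transcript counts summed to 11008958 and 12386720, in the other order. hnRNP genes summed to 8600 and 8946 CPM in the controls, 5848 and 7989 CPM in lck-IRF4 tumors and 6913 and 8478 CPM in lck-IRF4;p53+/- tumors. Replicate 1 was the lower of the tumor libraries in both groups, and as a share of reads hnRNP genes ran from 0.660% to 0.912% in tumors on both sides of the controls, at 0.752% and 0.767%. With 2 libraries a side, 0.333 is the smallest two-sided p of an exact permutation test, and these sums were left untested.

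**Figure D1:**
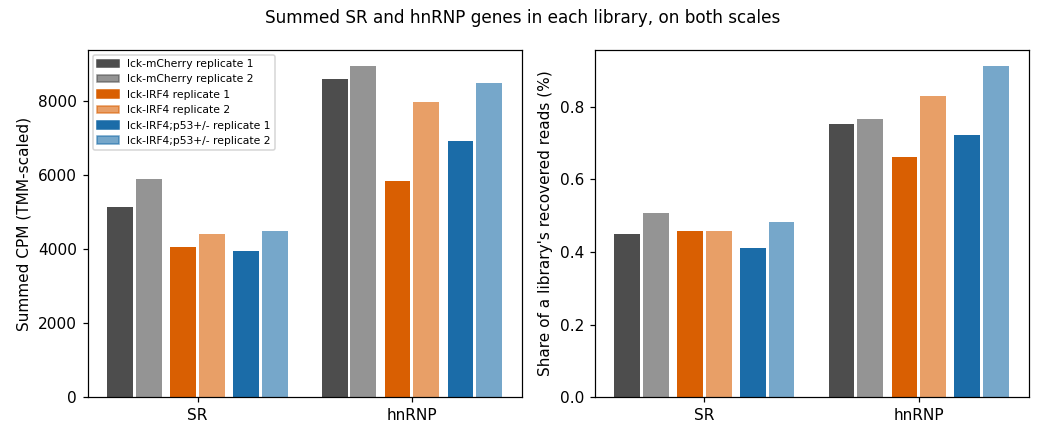
Bars give the summed level of 17 SR and 25 hnRNP genes in each of the 6 libraries, as TMM-scaled CPM on the left and as the percent of a library's recovered reads on the right. The SR bars of the tumors lie below both controls on the left (3945 to 4492 against 5153 and 5910 CPM) and overlap them on the right.

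No SR or hnRNP gene passed the test in any comparison. In lck-IRF4 tumors against controls, 0 of 40 genes had an adjusted p under 0.05 by edgeR's quasi-likelihood test with Benjamini-Hochberg adjustment over all 14124 genes tested, of which 134 (0.949%) passed. Without adjustment 2 of the 40 had p under 0.05 (srsf3b and hnrnpa0l), where 18.6% of all genes did. In lck-IRF4;p53+/- tumors against controls, 0 of 40 passed beside 344 of all genes (2.44%), and 3 (srsf3b, hnrnpc and hnrnpr) had an unadjusted p under 0.05 beside 19.7% of all genes. Between the tumor groups 0 of 40 passed beside 1 of all genes (0.00708%), and 2 (hnrnpa0a and hnrnpa0l) had an unadjusted p under 0.05 beside 6.76% of all genes. DESeq2 on the same counts also called 0 members in each comparison, with 2, 4 and 2 at an unadjusted p under 0.05. The lowest adjusted p of a member over every alternative tried was 0.0558, for srsf3b in lck-IRF4 tumors by DESeq2. Its adjusted p ran from 0.0558 to 0.633 over those alternatives.

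The estimated differences were small beside those of other genes. The median size of the log2 fold change, regardless of sign, was 0.30, 0.35 and 0.32 in the 3 comparisons (lck-IRF4 against controls, lck-IRF4;p53+/- against controls, lck-IRF4;p53+/- against lck-IRF4), and 0.69, 0.75 and 0.45 over all genes tested. The members were also measured more closely, with a median standard error of 0.43, 0.42 and 0.42 on the log2 scale beside 0.67, 0.67 and 0.66. The other genes were not matched to the members by level or standard error. The part of closer measurement in the smaller sizes was therefore not tested. A log2 fold change of 1 or more either way was estimated for 1, 7 and 2 of the 40 members, or 2.5%, 17.5% and 5% of them, beside 37.4%, 39.5% and 22.2% of all genes. The median log2 fold change with its sign was −0.20 and −0.24 in the tumor groups against controls and −0.04 between tumor groups, beside 0.00, 0.03 and 0.01 over all genes. Scaling by plain totals of recovered reads moved the all-gene medians against controls to 0.33 and 0.32 and the members' medians to 0.12 and 0.06, so the sign of the members' median against controls flipped, and it then lay 0.21 and 0.26 below that of all genes. Estimates were below 0 for 28 and 26 of the 40 members against controls and for 21 between the tumor groups. By plain totals of recovered reads they were below 0 for 16, 17 and 21, and by the totals of the transcript tables for 17, 18 and 21, so the majority direction against controls also turned with the scaling. Single libraries decided the distance as well. Without lck-IRF4 replicate 1, the medians in lck-IRF4 tumors were −0.03 for both members and all genes, with 21 of 40 members below 0, and without lck-IRF4 replicate 2 the members' median was −0.34 beside 0.00. Without control replicate 1 the members' median minus that of all genes was −0.37 in lck-IRF4 tumors and −0.52 in lck-IRF4;p53+/- tumors, and without control replicate 2 it was −0.34 and −0.18. For lck-IRF4;p53+/- tumors it was −0.14 without replicate 1 of that group and −0.38 without replicate 2. Between the tumor groups it was −0.23 without lck-IRF4 replicate 1, 0.14 without lck-IRF4 replicate 2 and 0.08 without lck-IRF4;p53+/- replicate 1.

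The intervals were wide. The 95% interval of a log2 fold change reached 0.75 to either side of the estimate for srsf6b, the closest measured member, and 2.39 for hnrnpa3, the least closely measured, in lck-IRF4 tumors against controls. Intervals lay wholly between −1 and 1 for 7, 7 and 9 of the 40 members in the 3 comparisons, and wholly between −2 and 2 for 36, 32 and 33. They reached below −1 for 30, 29 and 18 members and above 1 for 16, 13 and 19, with 13, 9 and 6 counted in both. For most members a 2-fold difference in at least 1 direction was thus inside the interval, and missing the threshold does not show that a member was unchanged.

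**Figure D2:**
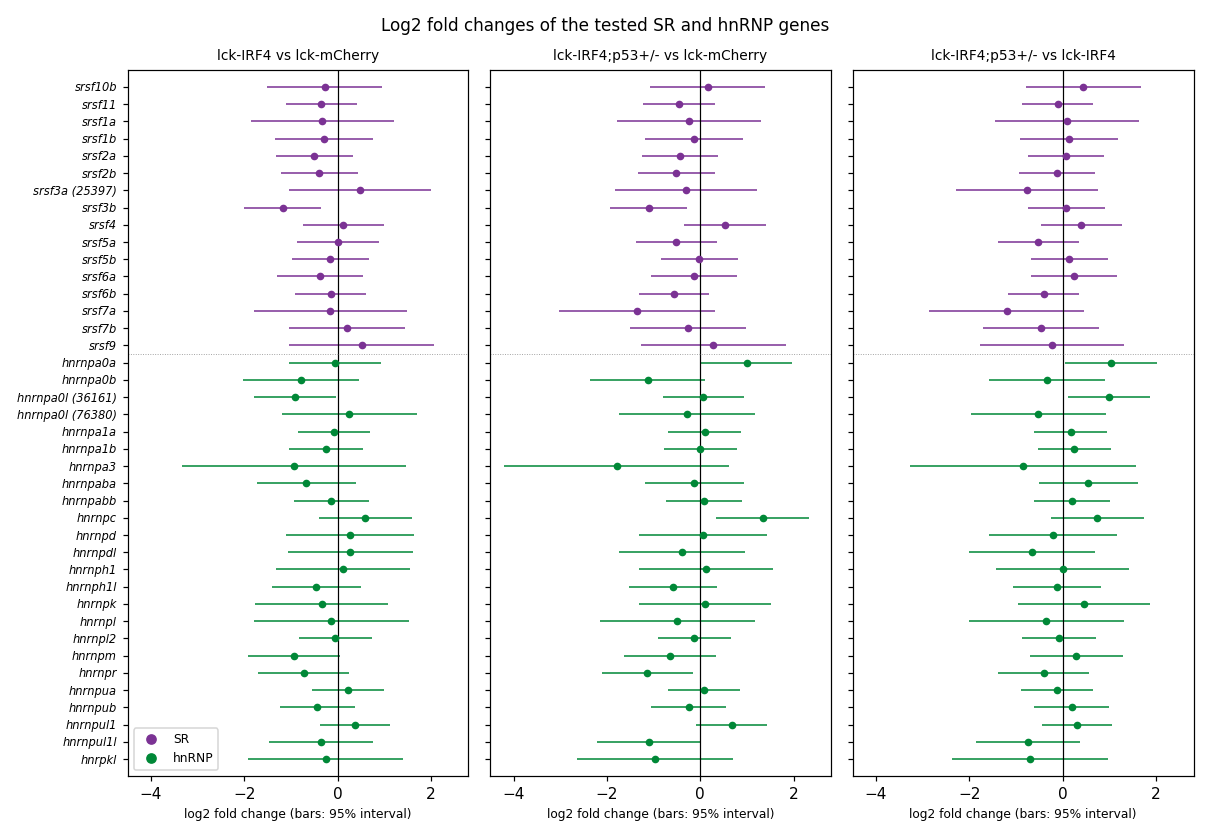
Points give the log2 fold change of each of the 40 tested genes in the 3 comparisons, with bars for the 95% interval, SR genes above the dotted line and hnRNP genes below it. Numbers in brackets are the last digits of the gene identifier where a symbol stands on more than 1 gene. The intervals of srsf3b lie below 0 in both comparisons with controls, from −2.00 to −0.35 and from −1.93 to −0.27.

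Within the SR genes, srsf3b stood furthest from the controls in lck-IRF4 tumors. SRSF3 is the smallest SR protein and in mammals acts in splicing, export and polyadenylation of mRNA. srsf3b (ENSDARG00000059360.7) had 6204 and 4267 reads in the controls (903 and 684 CPM), 2761 and 2500 reads in lck-IRF4 tumors (307 and 396 CPM) and 2676 and 3307 reads in lck-IRF4;p53+/- tumors (335 and 405 CPM). All 4 tumor libraries were below both controls, and the tumor groups overlapped each other. The log2 fold change was −1.17 (SE 0.36, adjusted p = 0.144) in lck-IRF4 tumors and −1.10 (SE 0.36, adjusted p = 0.154) in lck-IRF4;p53+/- tumors, and it missed the threshold in both. The estimate kept its sign in 14 of 14 alternatives for each comparison, from −1.38 to −0.86 and from −1.32 to −0.81. Its paralog srsf3a (ENSDARG00000025397.10), with 61 and 206 reads in the controls, 260 and 185 in lck-IRF4 tumors and 160 and 114 in lck-IRF4;p53+/- tumors, did not show this ordering, since its controls lay on both sides of the lck-IRF4;p53+/- libraries.

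The SR gene with the most reads was srsf11, which encodes an SR-related protein. It had 1494 and 1874 CPM in the controls, 1293 and 1350 CPM in lck-IRF4 tumors and 1258 and 1192 CPM in lck-IRF4;p53+/- tumors. The groups did not overlap in any pair on this scale, yet the log2 fold changes against controls were −0.35 (SE 0.33, adjusted p = 0.645) and −0.46 (SE 0.33, adjusted p = 0.489). In reads srsf11 had 10266 and 11697 in the controls and between 8531 and 11625 in tumors, so the unscaled counts overlapped.

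The lowest SR gene between tumor groups was srsf7a, a close relative of srsf3 that in mammals binds RNA with an additional zinc knuckle. It had 37 and 40 reads in the controls, 33 and 44 in lck-IRF4 tumors, and 20 and 17 in lck-IRF4;p53+/- tumors. Both lck-IRF4;p53+/- libraries were below the other 4, with a log2 fold change of −1.20 (SE 0.72, adjusted p = 0.939) against lck-IRF4 and −1.36 (SE 0.72, adjusted p = 0.351) against controls. Its other copy srsf7b had between 11.1 and 20.8 CPM over the 6 libraries, with overlapping tumor and control groups. RefSeq places srsf7a next to hnrnpl, whose 21 to 45 reads per library overlapped between controls and each tumor group.

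Most other SR genes lay closer together. srsf4 had 88.6 and 67.0 CPM in controls, 100 and 69.6 CPM in lck-IRF4 tumors and 107 and 117 CPM in lck-IRF4;p53+/- tumors. The last were above both other groups on this scale, at a log2 fold change of 0.53 (95% interval −0.35 to 1.40) against controls. srsf2a and srsf2b, copies of the gene for an SR protein that is recurrently mutated in human myeloid neoplasms, were below both controls in all 4 tumor libraries on the CPM scale. srsf2a had 288 and 198 CPM in the controls and between 164 and 190 CPM in tumors, and srsf2b 105 and 82.7 CPM and between 65.6 and 73.9 CPM. In reads srsf2a had 1982 and 1239 in the controls and between 1142 and 1515 in tumors. srsf2b had 724 and 516 reads in the controls and between 467 and 627 in tumors, so the unscaled counts of both genes overlapped. Their adjusted p ran from 0.473 to 0.627 against controls. srsf6b had 516 and 535 CPM in controls, 439 and 508 CPM in lck-IRF4 tumors and 356 and 356 CPM in lck-IRF4;p53+/- tumors, in which it was lowest, with a log2 fold change of −0.56 (95% interval −1.32 to 0.19). Its copy srsf6a had more reads in every library and did not show this. srsf6a had 735 and 1278 CPM in controls, 801 and 751 CPM in lck-IRF4 tumors and 781 and 1060 CPM in lck-IRF4;p53+/- tumors, all inside the control range.

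srsf1a, 1 of the copies of the founding SR gene, was singled out after its values were seen because its replicates stood apart in the same way in every group. It had 145 and 435 CPM in the controls, 145 and 319 CPM in lck-IRF4 tumors and 146 and 346 CPM in lck-IRF4;p53+/- tumors. The libraries numbered 1 were thus alike across the groups, while those numbered 2 were higher by 1.58, 1.13 and 1.24 on the log2 scale. Groups overlapped fully, and the log2 fold changes against controls were −0.32 and −0.24 with standard errors of 0.66. Replicate 2 was higher in all 3 groups for 11 of the 40 members (27.5%) beside 17.0% of all genes tested, and lower in all 3 for 2 (5%) beside 16.6%.

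**Figure D3:**
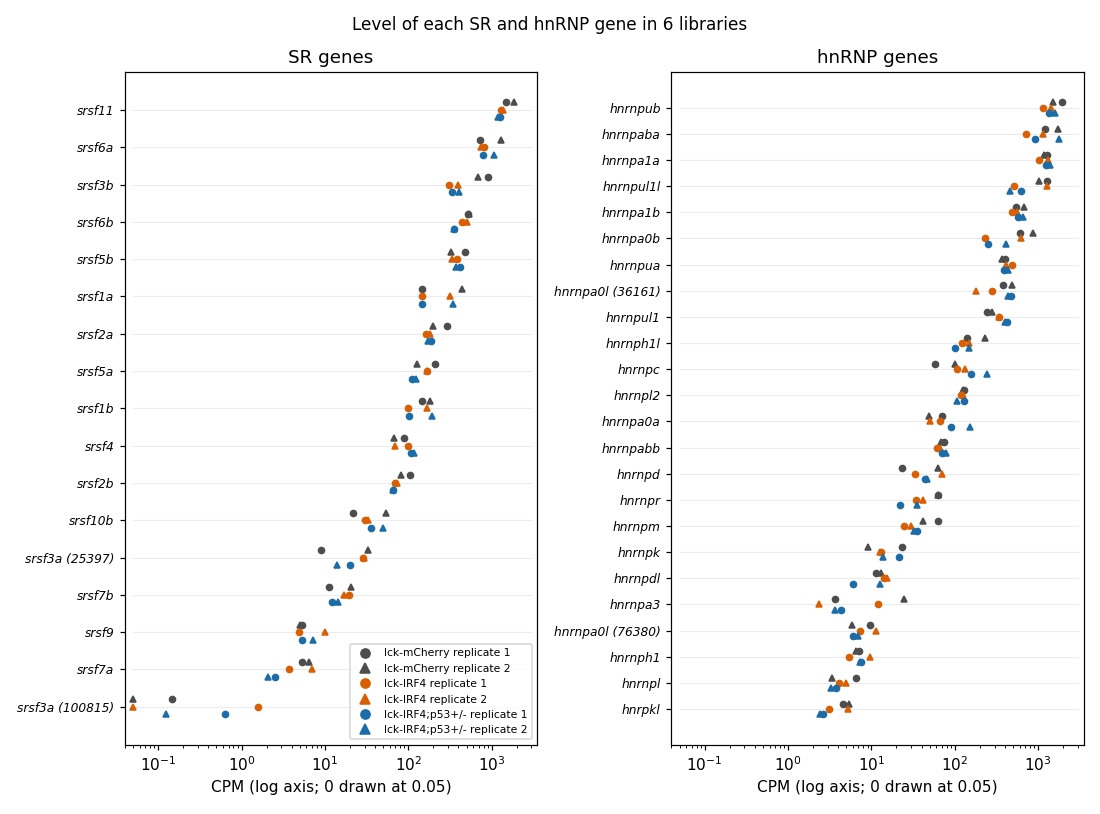
Points give the CPM of 41 genes in each of the 6 libraries on a log axis, with colors for groups, circles for replicate 1 and triangles for replicate 2, and 0 reads drawn at 0.05 CPM. Numbers in brackets are the last digits of the gene identifier where a symbol stands on more than 1 gene, and read levels also reflect gene length, so rows are not comparable with each other. The tumor points of srsf3b (307 to 405 CPM) lie left of its control points (684 and 903 CPM).

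Among hnRNP A/B genes, hnrnpa0a and hnrnpa0l (ENSDARG00000036161.8) had an unadjusted p under 0.05 by edgeR between the tumor groups. They were the 2 such members of 40 (5%), beside 6.76% of all genes. hnrnpa0b went the other way, with a log2 fold change of −0.35 (SE 0.53). A further gene under the symbol hnrnpa0l (ENSDARG00000076380.4), now named gzf1, had −0.53 and is not counted as an A0 gene here. hnRNP A0 is known in mammals to bind AU-rich parts of mRNAs and to affect their stability. hnrnpa0a (ENSDARG00000089302.6) had 488 and 310 reads in the controls (71.0 and 49.7 CPM), 596 and 319 in lck-IRF4 tumors (66.3 and 50.5 CPM) and 714 and 1230 in lck-IRF4;p53+/- tumors (89.4 and 151 CPM). Both lck-IRF4;p53+/- libraries were above the other 4, which overlapped. It was the highest member between tumor groups, at a log2 fold change of 1.04 (SE 0.42, unadjusted p = 0.0425, adjusted p = 0.702), and stood 0.99 (SE 0.42, adjusted p = 0.255) above controls. Without lck-IRF4;p53+/- replicate 2 the estimate between the tumor groups was 0.60, and without replicate 1 of that group it was 1.38.

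hnrnpa0l (ENSDARG00000036161.8), another A0-like gene, had 2597 and 3062 reads in the controls (378 and 491 CPM), 2532 and 1122 in lck-IRF4 tumors (282 and 178 CPM), and 3796 and 3560 in lck-IRF4;p53+/- tumors (475 and 436 CPM). Both lck-IRF4 libraries were below the other 4, and the lck-IRF4;p53+/- libraries fell between the controls. The log2 fold change was −0.92 (SE 0.38, adjusted p = 0.252) in lck-IRF4 tumors, 0.07 (SE 0.38) in lck-IRF4;p53+/- tumors, and 0.99 (SE 0.38, adjusted p = 0.657) between them. hnrnpa0b had 598 and 859 CPM in the controls, 229 and 619 CPM in lck-IRF4 tumors and 250 and 417 CPM in lck-IRF4;p53+/- tumors. It overlapped between controls and lck-IRF4 tumors and lay below both controls in lck-IRF4;p53+/- tumors, at −1.13 (95% interval −2.37 to 0.11). RefSeq lists hnrnpa0b and hnrnpa0l as overlapping genes, on a genome assembly other than that of the counts. Whether counting used the strand is not stated, so reads of the pair may have been shared between them. A gene with the same symbol hnrnpa0l in the tables (ENSDARG00000076380.4) is named gzf1 in the current name table, and it had between 37 and 72 reads.

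hnrnpaba had the highest mean level within the A/B genes, with 1218 and 1750 CPM in the controls, 722 and 1141 CPM in lck-IRF4 tumors and 919 and 1797 CPM in lck-IRF4;p53+/- tumors. On the CPM scale its lck-IRF4 libraries were below both controls at a log2 fold change of −0.67 (95% interval −1.73 to 0.39), and the libraries of the other tumor group lay on both sides of the controls. As a share of recovered reads, hnrnpaba overlapped between controls and lck-IRF4 tumors, and scaling by those totals gave −0.36. Its copy hnrnpabb had between 62.1 and 77.6 CPM in all libraries, and its replicates differed least of all members, by at most 0.13 on the log2 scale. hnrnpa1a and hnrnpa1b, copies of the gene for hnRNP A1, a repressor of splice sites in mammals, had between 1031 and 1400 CPM and between 481 and 685 CPM, and overlapped between controls and each tumor group. hnrnpa3 was the lowest member in lck-IRF4;p53+/- tumors, with 25 and 152 reads in the controls, 109 and 15 in lck-IRF4 tumors, and 35 and 30 in lck-IRF4;p53+/- tumors. Its log2 fold change of −1.79 (SE 1.04, adjusted p = 0.403) rested on control replicate 2, and was 0.12 without that library.

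hnrnpc, which encodes a protein that in mammals binds uridine tracts of nascent RNA and restrains the use of cryptic exons, was the highest member against controls in both comparisons. It had 400 and 628 reads in the controls (58.2 and 101 CPM), 953 and 848 reads in lck-IRF4 tumors (106 and 134 CPM), and 1252 and 2001 reads in lck-IRF4;p53+/- tumors (157 and 245 CPM). The 3 groups did not overlap, with controls lowest and lck-IRF4;p53+/- tumors highest, although control replicate 2 was close to lck-IRF4 replicate 1. The log2 fold change was 0.60 (SE 0.43, adjusted p = 0.522) in lck-IRF4 tumors, 1.34 (SE 0.43, adjusted p = 0.151) in lck-IRF4;p53+/- tumors, and 0.74 (SE 0.43, adjusted p = 0.919) between them. Over 14 alternatives the estimate for lck-IRF4;p53+/- tumors ran from 0.98 to 1.76 and its adjusted p from 0.0668 to 0.586.

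hnrnpr, a relative of SYNCRIP (hnRNP Q) that in mammals also takes part in mRNA transport, was on the other side of the controls. It had 436 and 392 reads in the controls (63.4 and 62.8 CPM), 312 and 264 in lck-IRF4 tumors (34.7 and 41.8 CPM), and 177 and 289 in lck-IRF4;p53+/- tumors (22.2 and 35.4 CPM). All 4 tumor libraries were below both controls, and the tumor groups overlapped by a narrow margin. The log2 fold change was −0.72 (SE 0.42, adjusted p = 0.414) in lck-IRF4 tumors and −1.13 (SE 0.42, unadjusted p = 0.0296, adjusted p = 0.201) in lck-IRF4;p53+/- tumors. hnrnpm, known in mammals for regulating exons of cell adhesion genes, had 63.4 and 41.7 CPM in the controls, 24.8 and 30.1 CPM in lck-IRF4 tumors and 34.9 and 32.1 CPM in lck-IRF4;p53+/- tumors. All 4 tumor libraries were below both controls on the CPM scale, at −0.94 (95% interval −1.93 to 0.05) and −0.65 (−1.64 to 0.34). In reads hnrnpm had 436 and 260 in the controls and between 190 and 279 in tumors, so the unscaled counts overlapped.

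Within the U group, whose proteins bind both RNA and chromatin, the gene with the highest level was hnrnpub, with 1957 and 1515 CPM in the controls, 1137 and 1432 CPM in lck-IRF4 tumors and 1342 and 1583 CPM in lck-IRF4;p53+/- tumors. On the CPM scale its lck-IRF4 libraries were below both controls and the other tumor group was not. The log2 fold changes against controls were −0.43 (95% interval −1.24 to 0.37) and −0.25 (−1.06 to 0.56). In reads hnrnpub overlapped, with 13449 and 9458 in the controls and 10227 and 9048 in lck-IRF4 tumors. Scaling by totals of recovered reads gave hnrnpub −0.12 in lck-IRF4 tumors. Its copy hnrnpua had between 371 and 486 CPM in all libraries. hnrnpul1 and hnrnpul1l, whose mammalian relative acts in the response to DNA breaks, lay on opposite sides of the controls in lck-IRF4;p53+/- tumors. hnrnpul1 had 243 and 276 CPM in the controls, 338 and 335 CPM in lck-IRF4 tumors and 428 and 401 CPM in lck-IRF4;p53+/- tumors. The 3 groups did not overlap, with close replicates in each, and the log2 fold change was 0.37 (95% interval −0.38 to 1.13) and 0.68 (−0.08 to 1.43) against controls. hnrnpul1l had 1292 and 1011 CPM in the controls, 516 and 1289 CPM in lck-IRF4 tumors and 615 and 465 CPM in lck-IRF4;p53+/- tumors. Its lck-IRF4 replicates differed by 1.32 on the log2 scale, and the lck-IRF4;p53+/- libraries were below both controls at −1.09 (95% interval −2.21 to 0.02).

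The leading genes of the other hnRNP subgroups overlapped between controls and each tumor group. For hnrnpd, which encodes the AU-rich element factor AUF1 in mammals, the controls had 23.0 and 63.3 CPM and the tumors between 33.4 and 70.3 CPM. hnrnph1l, of the subgroup that binds runs of G, had 139 and 231 CPM in the controls and between 100 and 149 CPM in tumors. hnrnpk, which encodes a KH-domain protein that binds C-rich RNA, had 23.6 and 9.1 CPM in controls and between 12.7 and 21.4 CPM in tumors. hnrnpl2, a relative of hnRNP L, which binds CA repeats and acts on the splicing of CD45 in mammalian T cells, had between 105 and 130 CPM in all libraries, with log2 fold changes of −0.05 (95% interval −0.83 to 0.74) and −0.13 (−0.91 to 0.66) against controls.

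Non-overlap of 2 libraries against 2 was common in these data, among the members as among all genes. On the CPM scale, groups did not overlap for 15 of the 40 members (37.5%) in lck-IRF4 tumors against controls beside 46.8% of all genes. They did not overlap for 17 (42.5%) in lck-IRF4;p53+/- tumors against controls beside 50%, and for 21 (52.5%) between the tumor groups beside 39%. Tumors were the lower group for 11 of the 15 and 12 of the 17, or 27.5% and 30% of members, beside 22.1% and 22.6% of all genes. For 15 members the means of the 3 groups ranged over more than the largest difference between replicates, or 37.5% beside 40.5% of all genes. The median largest replicate difference was 0.72 on the log2 scale, and the median range of group means was 0.48, beside 1.14 and 0.93 over all genes.

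Zebrafish kept a pair of copies of many of these genes, and the share of each pair's reads that came from the a copy gives a measure within a library that does not depend on the scaling. It was steady for srsf2, where srsf2a held between 70.2% and 74.0% of the reads in every library. For hnrnpa1, hnrnpa1a held 70.3% and 63.2% in the controls and between 68.1% and 70.2% in tumors, inside the control range. For srsf5, srsf5a held 30.6% (95% Wilson interval 29.3 to 31.9) and 28.0% (26.4 to 29.7) in the controls, 30.5% (29.3 to 31.8) and 33.8% (32.1 to 35.4) in lck-IRF4 tumors, and 21.2% (20.0 to 22.5) and 24.9% (23.6 to 26.2) in lck-IRF4;p53+/- tumors. Both lck-IRF4;p53+/- libraries were below the other 4. For hnrnpa0, hnrnpa0a held 10.6% and 5.47% of the reads in the controls, 22.5% and 7.54% in lck-IRF4 tumors, and 26.3% and 26.6% in lck-IRF4;p53+/- tumors. Both lck-IRF4;p53+/- libraries were above the other 4, and the lck-IRF4 replicates lay far apart. This share leaves out hnrnpa0l (ENSDARG00000036161.8), which RefSeq lists as overlapping hnrnpa0b. That gene had 2532 reads in lck-IRF4 replicate 1 and 3796 in lck-IRF4;p53+/- replicate 1. With its reads in the total, lck-IRF4;p53+/- replicate 1 was not above lck-IRF4 replicate 1, so the separation depended on leaving it out. For hnrnpu, hnrnpua held 16.9% and 19.6% in the controls, 29.9% and 22.1% in lck-IRF4 tumors, and 22.4% and 21.4% in lck-IRF4;p53+/- tumors, with every tumor library above both controls. The share of srsf1a was 50.1% and 70.4% in the controls, and the 4 tumor libraries lay between them. srsf3a held 8.61% and 6.89% in lck-IRF4 tumors and between 0.974% and 5.64% in the other 4 libraries. The share of srsf6a separated only the tumor groups, and that of srsf7a only lck-IRF4;p53+/- tumors from controls. hnrnpaba held between 92.1% and 96.3%, with overlapping groups. No share over all genes stands beside these orderings, and non-overlap in CPM was common, at 39% to 50% of all genes. Reads were not marked by molecule, so the Wilson intervals hold counting error alone, and reads that could not be placed on 1 copy would change these shares.

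**Figure D4:**
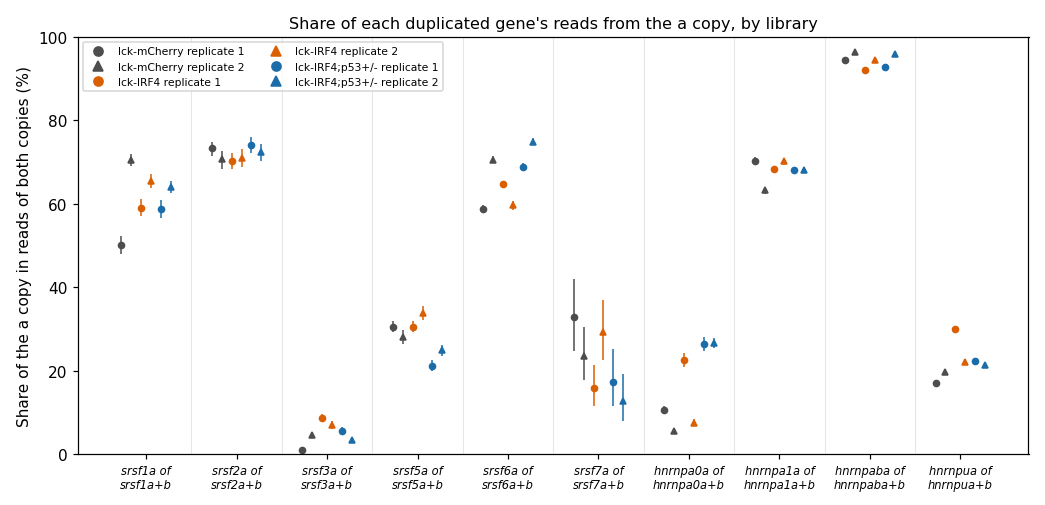
Points give, for 10 duplicated genes, the percent of the reads of both copies that came from the a copy in each of the 6 libraries, with bars for the 95% Wilson interval of the counts. For srsf3 the a copy is ENSDARG00000025397.10. The lck-IRF4;p53+/- points of hnrnpa0 (26.3% and 26.6%) lie above all others of that gene, and those of srsf5 (21.2% and 24.9%) below. The hnrnpa0 share leaves out the reads of hnrnpa0l, and its ordering did not hold with them in the total.

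The genes that work with these proteins were described by 3 lists. Of SR protein kinases and partners 14 genes were tested, of other RNA-binding splicing regulators 35 and of core spliceosome genes 52, and 0 of each were called by edgeR in any of the 3 comparisons. At an unadjusted p under 0.05 there were 1, 1 and 0 of the 14 kinases and partners, 4, 4 and 1 of the 35 regulators, and 1, 2 and 1 of the 52 core genes. Over all genes tested, 18.6%, 19.7% and 6.76% had such a p, and 0.949%, 2.44% and 0.00708% were called. Their median log2 fold changes were −0.29, −0.57 and −0.29 for kinases and partners, −0.43, −0.33 and 0.07 for regulators, and −0.15, 0.06 and 0.28 for core genes, beside 0.00, 0.03 and 0.01 over all genes. The lowest adjusted p in the lists was that of ptbp3, a paralog of the polypyrimidine tract repressor, at 0.1003 in lck-IRF4 tumors. ptbp3 had 95.5 and 132 CPM in the controls, 39.1 and 32.1 CPM in lck-IRF4 tumors and 36.3 and 54.3 CPM in lck-IRF4;p53+/- tumors, with log2 fold changes of −1.67 (SE 0.41) and −1.33 (SE 0.40). All 4 tumor libraries were below both controls. srpk3, of the kinase family that phosphorylates SR proteins, had 285 and 146 reads in the controls, 509 and 2611 in lck-IRF4 tumors, and 420 and 615 in lck-IRF4;p53+/- tumors. Its log2 fold change of 2.85 (SE 0.80, adjusted p = 0.140) in lck-IRF4 tumors came mainly from replicate 2, at 413 CPM beside 56.6 CPM in replicate 1. Both genes were chosen after their values were seen.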

How the data were processed

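Libraries were strand-specific, paired-end and of 100 bp reads. The submitters' processing notes name STAR 2.5.2a, featureCounts 1.6.1, DESeq2 1.12.4 and GRCz11. The deposited counts per library are whole reads per Ensembl transcript, which no source used here pairs with genes, and served for library totals (10138258 to 12655373) and as a check. The authors also deposited 2 gene tables from DESeq2, of which only identifiers, symbols and the mean of normalized counts (signal) over 4 libraries were used. Their fold changes, standard errors, Wald statistics and p-values were not used.

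Each mean is the sum of 4 whole counts, each divided by its library's size factor, over 4, printed to 15 digits. Size factors were read from the genes with fewest reads, and the 6 counts of each gene were then solved from both tables jointly by lattice reduction. Of 23228 genes above 0, 23152 (99.7%) had 1 solution. The other 76, all with means of at least 12780, were left out and include no member, so library totals lack the most abundant genes. All 5731 genes solvable in each table alone gave identical control counts. The order of libraries was checked against the labelled transcript counts, where 156 genes matched a transcript in all 6 libraries, and 20 at most under any other of 720 orders. This replaced the planned sums of transcripts per gene. No sequence was used. Gene positions of the RefSeq table (GRCz12tu), an assembly other than GRCz11, served only for neighbours. That table matched 40 of 40 member symbols.

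Counts were tested with edgeR 4.0.16 in R 4.3.3 (quasi-likelihood, TMM, filterByExpr, 6 libraries in 1 fit, group as the only term). The biological coefficient of variation was 0.535. A call needed a p under 0.05 after Benjamini-Hochberg adjustment over 14124 genes. Standard errors and 95% intervals came from the quasi-likelihood fit. The spread between replicates was taken on log2(CPM + 0.5). Scripts were tested on simulated data. There the edgeR test called 8 unchanged genes, beside 0, 4 and 29 of those changed by 1, 2 and 4 on the log2 scale. In a simulated comparison without changes it called 1. Alternatives were DESeq2 1.42.0, relative log expression factors, no filter, the 4 libraries compared, the replicate number as a block and each library left out, and, chosen after seeing the data, scaling by totals and DESeq2 on 4 libraries. Named genes were the extremes of each comparison, the highest in each subfamily and their copies. Others were named outside this rule with their values known, among them srsf1a, srsf2a, srsf2b, srsf4, srsf6b, hnrnpa0l, hnrnpul1, hnrnpul1l, ptbp3 and srpk3. Members, lists and tests were chosen with earlier results of these data known.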

Additional observations from a re-analysis of the deposited data

How the results depend on the processing

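The number of SR and hnRNP genes called was 0 in each comparison under every one of the 14 alternatives. Signs of single members were less firm. Over 560 values in each comparison (40 members, 14 alternatives), the log2 fold change changed sign in 56 in lck-IRF4 tumors against controls, 50 in lck-IRF4;p53+/- tumors against controls and 21 between tumor groups, and moved by more than 1 standard error in 18, 14 and 11. None of the members with an unadjusted p under 0.05 changed sign in its comparison. The count of all genes called was 134, 344 and 1 in the 3 comparisons, 1415, 1509 and 284 by DESeq2, 1287, 1328 and 366 by DESeq2 on the 4 libraries compared, 1623, 1603 and 354 without the filter on low counts, 412, 481 and 0 by edgeR on the 4 libraries, and 85, 208 and 1 with the totals of the transcript tables as library sizes. With single libraries left out it ran from 0 to 410, from 0 to 401 and from 0 to 3, and was 0 against controls without either control library, where the lone control is assumed to vary like the other groups. Members at an unadjusted p under 0.05 ranged from 0 to 3, 2 to 6 and 0 to 2 over all alternatives. With the replicate number as a block, members called were 0 in each comparison and all genes called were 177, 315 and 0. Deviations of same-numbered libraries correlated at 0.06, 0.22 and −0.03 over the genes tested. Such values cannot decide whether the numbers mark a pairing or a batch for some genes, and this was not tested. With 2 libraries per group, the median 95% interval of a member reached 0.99 on the log2 scale to either side without adjustment for the number of genes. A call after adjustment asks for more, so the counts of 0 say nothing about changes of that size. In simulated lck-IRF4 data, 0 of 67 genes changed by 1 on the log2 scale were called, 4 of 67 changed by 2 and 29 of 66 changed by 4. Those genes were drawn from all genes tested, whose median standard error was 0.67 in that comparison beside 0.43 for the members. The shares called therefore do not carry over to the members. The counts of 0 alone do not show that larger changes were absent. The members' own 95% intervals lay wholly between −2 and 2 for 36, 32 and 33 of the 40. Alternatives planned for the authors' own p-values were not run, since per-library counts could be recovered.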

Other observations

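The genes outside the family whose log2 CPM over the 6 libraries ran closest to the members' mean were mycla (Pearson r = 0.992), nsd1a (0.988), ythdf2 (0.985), trmt1l (0.982) and si:ch73-314g15.3 (0.981). The members' mean log2 CPM was 6.59 and 6.76 in the controls, 6.37 and 6.60 in lck-IRF4 tumors and 6.36 and 6.55 in lck-IRF4;p53+/- tumors, higher in replicate 2 of every group. These are descriptions over 6 libraries that share their scaling, taken as the top of all genes tested. The members did not follow their mean closely, since the median Pearson r over 780 pairs of members was 0.13, with 58.5% of the pairs above 0.

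Cell cycle genes, the markers of dividing cells, summed to 3490 and 5740 CPM in the controls, 2770 and 3544 CPM in lck-IRF4 tumors and 3509 and 4195 CPM in lck-IRF4;p53+/- tumors. They were higher in replicate 2 of every group, as the members' mean was, and their part in it was not tested.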
